A study of Arabidopsis thaliana with 11 samples.

Results

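Gene expression in pericycle cells was compared with that in cortex cells of Arabidopsis thaliana roots grown without salt, using 5 of the 11 arrays in the series. The pericycle group held 2 arrays from line J2731 and the cortex group held 3 arrays from line J1551, and all 5 came from seedlings kept for 7 days in the control solution. The study itself asked how cell types of the root respond to salinity. Its other 6 arrays, 3 per line, came from seedlings of the same age that spent their last 2 days in salt, at 25 mM NaCl with 0.22 mM CaCl2 and then at 50 mM NaCl with 0.375 mM CaCl2. In every group the roots were turned into protoplasts for 30 min with wall-digesting enzymes, the cells were sorted by flow cytometry, and all seedlings of a tank made up a single biological sample. Each cell type was represented by a single marker line, so a difference between the cell types and a difference between the lines cannot be told apart. All groups were digested and sorted, so what these steps did to the values was not tested.

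The pericycle is the outermost cell layer of the vascular cylinder. Lateral roots start there in response to auxin, and the layer lies between the endodermis and the xylem and phloem that carry water, ions and sugars. The cortex lies outside the endodermis and makes up much of the ground tissue of the young root, through which solutes pass on their way to the stele.

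The values were log2 expression values of 22746 probe sets, with the array's own 64 control probe sets left out. The 3 cortex arrays correlated with each other at 0.987 to 0.99 and the 2 pericycle arrays at 0.947, while pericycle and cortex arrays correlated at 0.908 to 0.92, all across probe sets. The pericycle group was therefore known less precisely, with a median SD of 0.249 against 0.181 in cortex. Signals from the 3′ and 5′ ends of the control transcripts, a sign of RNA integrity, gave no single direction: the 3′ minus 5′ difference of the first GAPDH pair was 1.1 to 1.25 in cortex against 1.49 and 1.43 in pericycle, and that of the second pair was 0.54 to 0.69 against 0.51 and 0.28. The differences of the first ubiquitin pair overlapped between the groups, and those of the second did not, at 2.34 to 2.50 in cortex and 2.64 and 2.52 in pericycle. The arrays' medians were 3.41 to 3.49 in cortex and 3.56 and 3.54 in pericycle. Array weights estimated by limma were 1.23 to 2.97 for the 3 cortex arrays and 0.439 for each pericycle array. The first salt-grown pericycle array had the lowest weight of all 11, at 0.171.

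Markers of the labelled cell types were represented on only one side. Among the markers of the pericycle and of lateral root founder cells, 5 of the 23 listed genes had a probe set that could be assigned to them. LBD16 (AT2G42430), a transcription factor that acts in founder cells downstream of auxin, was measured at 2.47, 2.24 and 2.06 in the cortex arrays and at 6.37 and 5.92 in the pericycle arrays. Both pericycle arrays lay far above the cortex arrays, and the gene passed the test (log2 difference 3.88 ± 0.302, SE; 14.8-fold; adjusted p = 4.93e-05). The other 4 markers of that list, LBD29, CR4, GH3.3 and PUCHI, differed by -0.19 to 1.07 and did not pass. In the cortex list, 4 of 5 genes were measured and all 4 differences were positive, at 0.15 to 0.82, so none favoured the cells labelled cortex.

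The defining cortex marker AT1G62500 was near the lowest values of the array in every sample, at 1.78, 1.76 and 1.69 in cortex and 2.02 and 1.76 in pericycle. AT1G09750 was the only measured cortex marker above the dim limit of 2.81, which is the 40th percentile of all probe set means. Its values were 4.80, 4.99 and 5.36 in cortex and 5.36 and 6.38 in pericycle, so the groups met and the difference did not pass (log2 0.82 ± 0.441; adjusted p = 0.283). The identity of the cells labelled cortex thus had no positive support from the markers measured here, and they are called cortex as labelled.

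**Figure D1:**
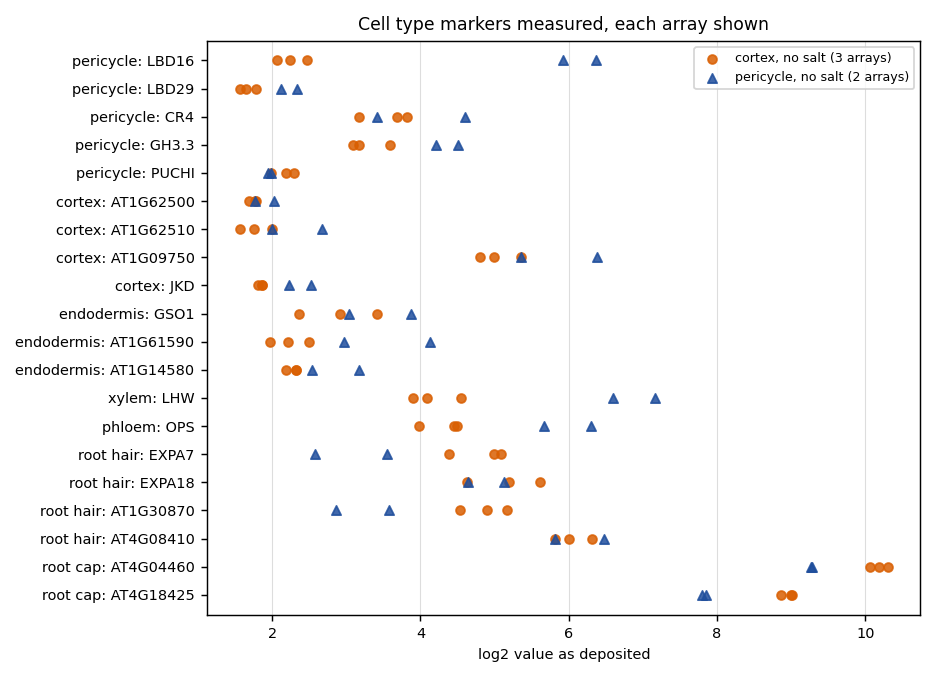
Log2 values (x axis) of the cell type markers that could be assigned to a probe set (y axis, with the cell type of each marker), with circles for the 3 cortex arrays and triangles for the 2 pericycle arrays. LBD16 separates the groups widely, the 4 cortex markers do not favour the cortex arrays, and both root cap markers lie higher in the cortex arrays.

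Markers of neighbouring cell types also differed. LHW (AT2G27230), a transcription factor needed for proliferation of vascular cells and the only xylem and procambium marker measured of 20 listed, was at 4.09, 4.55 and 3.9 in cortex and at 6.6 and 7.16 in pericycle (log2 difference 2.70 ± 0.299; adjusted p = 0.00032). OPS (AT3G09070), a membrane protein of the developing phloem and the only phloem marker measured of 14, was at 3.99, 4.46 and 4.49 in cortex and 6.30 and 5.67 in pericycle (log2 1.67 ± 0.363; adjusted p = 0.0122). Neither gene's groups overlapped, although OPS did not pass without pericycle replicate 1 (adjusted p = 0.0797). The 3 endodermis markers measured of 15 had a mean of 2.30 to 2.56 over the cortex arrays and 3.23 to 3.34 over the pericycle arrays, and none passed.

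Outer root markers leaned the other way. The 2 root cap markers measured of 7, AT4G18425 and AT4G04460, both passed with lower values in pericycle, and their mean was 9.46 to 9.66 in the cortex arrays against 8.53 to 8.57 in the pericycle arrays. AT4G18425 was at 8.86, 8.99 and 9.01 in cortex and at 7.85 and 7.80 in pericycle (log2 -1.13 ± 0.182; adjusted p = 0.00261). AT4G04460 did not pass without pericycle replicate 2 (adjusted p = 0.0555). Of the root hair and epidermis markers, 4 of 26 were measured, with a mean of 5.06 to 5.40 in cortex and 4.14 to 4.52 in pericycle, and only AT1G30870 passed (log2 -1.64 ± 0.445; adjusted p = 0.0337). That call was lost without any one of 6 arrays, among them each cortex control array and pericycle replicate 2, with adjusted p of 0.0527 to 0.189. In sorted bulk samples, fewer cells of a type and less RNA per cell cannot be told apart, and the part that these other cell types had in the differences below was not tested.

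Across the array, 3387 of 22746 probe sets (14.9%) differed between pericycle and cortex, by limma's moderated test with Benjamini-Hochberg adjusted p under 0.05. Of these, 1527 (6.71%) were higher in pericycle and 1860 (8.18%) were lower. The median log2 difference was 1.64 among the higher probe sets and -1.41 among the lower ones, against 0.02 over all probe sets. At least 8-fold differences were found for 196 probe sets on the pericycle side and for 98 on the cortex side. The arrays of the 2 groups did not overlap for any of the 3387, whereas 10123 of all probe sets (44.5%) had groups that did not overlap. The 2 sides also differed in how dark the other cell type was: 477 of the 1527 higher probe sets (31.2%) had a cortex mean below the dim limit, and 259 of the 1860 lower ones (13.9%) had a pericycle mean below it.

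The spread between the 2 pericycle arrays bears on each value below. Their median distance was 0.475 among the higher probe sets, 0.406 among the lower ones and 0.353 over all probe sets. They lay more than 1 log2 unit apart for 288 of the higher probe sets (18.9%) and 296 of the lower ones (15.9%), against 15.6% over all. Leaving out 1 array moved the count of calls between 2258, without cortex replicate 2, and 5007, without the first salt-grown pericycle array. In terms of genes with a probe set of their own, 1777 of 13355 (13.3%) passed, 785 (5.88%) higher and 992 (7.43%) lower.

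**Figure D2:**
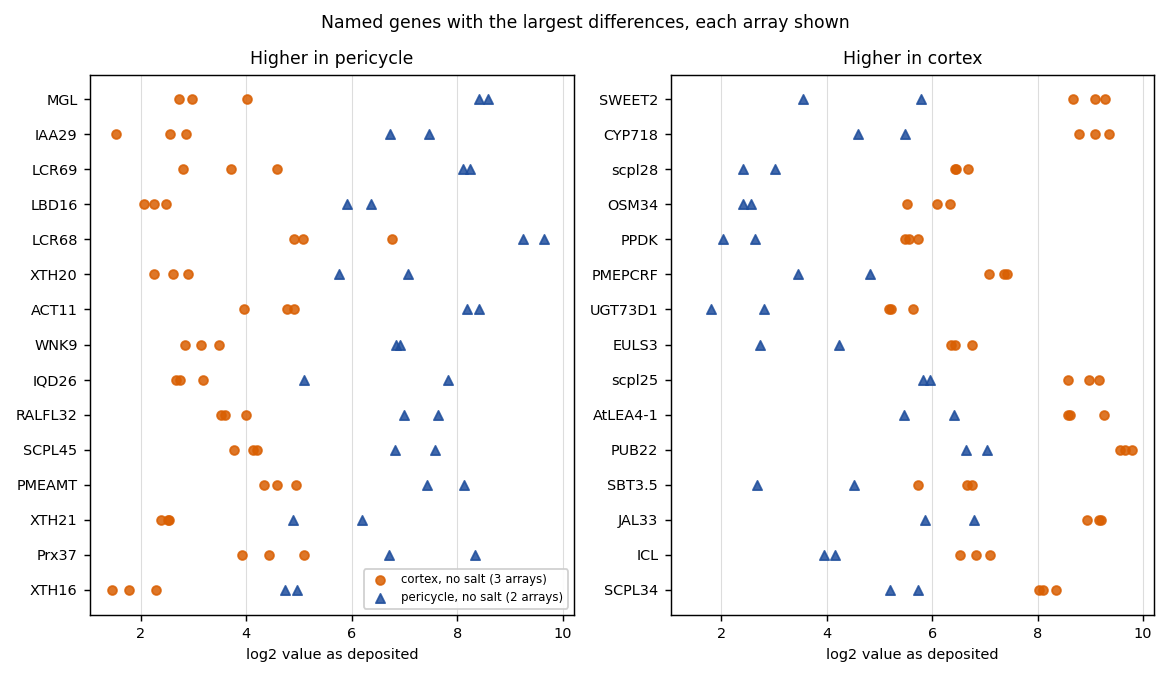
Log2 values (x axis) in each of the 5 arrays for the 15 genes with a symbol that were most increased in pericycle (left) and the 15 that were most increased in cortex (right), with circles for cortex and triangles for pericycle. The genes were picked among those whose groups did not overlap. The pericycle arrays lie far apart for IQD26 and SWEET2.

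The largest difference on the pericycle side belonged to a gene known here only by its locus, AT2G27740. It was at 2.16, 2.37 and 1.86 in cortex and at 8.76 and 8.15 in pericycle, so it was near the lowest values of the array in one cell type and bright in the other (log2 difference 6.32 ± 0.347; 80.2-fold; adjusted p = 1.31e-05). The locus AT2G25450 followed with 3.12, 2.68 and 2.54 in cortex and 8.42 and 8.41 in pericycle (log2 5.63 ± 0.257; 49.5-fold; adjusted p = 5.36e-06). AT4G15390 was at 1.66, 2.24 and 2.21 against 6.89 and 7.02 (log2 4.92 ± 0.243). For both of these loci the 2 pericycle arrays were nearly equal. Of the 15 genes with the largest differences in this direction, 12 had no symbol in the annotation used, and the 15 spanned log2 differences from 4.38 to 6.32.

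A few genes tied to auxin differed widely between the cell types. Of 24 genes whose names tie them to auxin, 4 were higher in pericycle and 2 were lower, where 5.88% of all genes were higher and 7.43% lower, so the share of lower genes was near that of all genes. Their median log2 difference was 0.18, and it was 0.12 and 0.08 without pericycle replicates 1 and 2. IAA29 (AT4G32280), of the family of Aux/IAA repressors of auxin response, was at 2.55, 2.87 and 1.53 in cortex and at 7.47 and 6.72 in pericycle. Its groups were wide apart (log2 4.78 ± 0.45; 27.5-fold; adjusted p = 0.000128). A second Aux/IAA gene, IAA18, was at 3.00, 3.57 and 3.6 in cortex and 4.60 and 4.58 in pericycle (log2 1.21 ± 0.256; adjusted p = 0.0109), and the other 5 measured genes of this family did not pass.

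SKP2A, an F-box protein linked to auxin and the cell cycle, was also higher in pericycle, with 3.40, 3.71 and 4.42 in cortex against 6.22 and 5.43 (log2 1.98 ± 0.326; adjusted p = 0.00286). The gene for the auxin-conjugating enzyme IAGLU, which links glucose to indole-3-acetate, went the other way. It was at 8.35, 8.71 and 8.79 in cortex and at 6.48 and 6.42 in pericycle (log2 -2.17 ± 0.422; 4.51-fold; adjusted p = 0.00691). GH3.1, of a family that includes enzymes coupling auxin to amino acids, was likewise lower in pericycle (log2 -1.51 ± 0.268; adjusted p = 0.00443). The homeobox gene HAT2, a member of a transcription factor family with auxin-responsive genes, was at 4.30, 4.81 and 4.26 against 6.41 and 5.66 (log2 1.58 ± 0.42; adjusted p = 0.0313). That call was lost without any of 6 single arrays, with adjusted p up to 0.175 without pericycle replicate 1.

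Of 8 measured genes named LCR, 2 were higher in pericycle and none was lower, and of 11 RALF-like genes 1 was higher and 1 lower. Over all genes 5.88% were higher and 7.43% lower, so the RALF-like counts were near the share of all genes. LCR69 and LCR68, close relatives that encode plant defensins, were at 3.71, 4.58 and 2.81 and at 4.91, 6.77 and 5.08 in cortex. In pericycle LCR69 was at 8.12 and 8.25 and LCR68 at 9.24 and 9.64. Each gene's pericycle arrays lay above all its cortex arrays, by a log2 difference of 4.48 ± 0.443 for LCR69 (adjusted p = 0.00017) and of 3.86 ± 0.491 for LCR68 (adjusted p = 0.000726). The other 6 LCR genes differed by -0.42 to 0.25 and did not pass. Whether the probe sets of these relatives detect each other's transcripts was not tested. Among the RALF-like genes, which encode secreted peptide signals that act through receptor kinases, RALFL32 was higher in pericycle, at 7.63 and 6.98 against 3.59, 4.00 and 3.53 (log2 3.6 ± 0.415; 12.1-fold; adjusted p = 0.000405). RALFL33 was lower in pericycle (log2 -0.93 ± 0.188; adjusted p = 0.00857), a call lost without pericycle replicate 2 (adjusted p = 0.0543). Without that array 3 RALF-like genes were called higher, and without cortex replicate 1 or the first or second salt-grown pericycle array 2 were called lower.

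Other pericycle genes encode parts of the cytoskeleton, signalling and membrane lipids. ACT11, an actin, was at 4.77, 4.91 and 3.96 in cortex and at 8.18 and 8.41 in pericycle (log2 3.75 ± 0.602; 13.5-fold; adjusted p = 0.00253). WNK9, a protein kinase of the WNK family, had an especially tight pair of pericycle arrays, at 6.92 and 6.84 against 2.83, 3.48 and 3.15 (log2 3.73 ± 0.205; adjusted p = 1.31e-05). IQD26, of a family of calmodulin-binding proteins, did not: it was at 5.10 and 7.83 in pericycle and 2.66, 2.74 and 3.18 in cortex (log2 3.6 ± 0.647; adjusted p = 0.00461), and the difference was 2.24 without pericycle replicate 2. PMEAMT, a methyltransferase that makes precursors of phosphatidylcholine, was at 4.58, 4.94 and 4.34 in cortex and at 8.14 and 7.42 in pericycle (log2 3.16 ± 0.343; adjusted p = 0.000286). TET5 and TET6, tetraspanin membrane proteins, were higher in pericycle by log2 2.82 ± 0.312 and 2.60 ± 0.396. The relatives TET3 and TET8 were lower by less than 1 log2 unit, at -0.73 and -0.63 without pericycle replicate 1. TET3 lost its call without cortex replicate 2 or 3 (adjusted p = 0.0637 and 0.0786), with a replicate block and with trended robust moderation. TET8 lost its call without cortex replicate 1 or 2 (adjusted p = 0.0546 and 0.0517).

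The calls among genes of sulfur and methionine metabolism were all on the pericycle side. Of 16 measured genes of this list, 6 were higher in pericycle and none was lower, against 5.88% and 7.43% of all genes. The list was chosen with earlier results of these data known. Its median log2 difference was 0.40, or 0.22 without pericycle replicate 2. The count of 6 was 5 without cortex replicate 1 or with a replicate block, and 4 without cortex replicate 2 or 3. Without the first salt-grown pericycle array 1 gene was called lower. Plants reduce sulfate through ATP sulfurylase and sulfite reductase and use the sulfide to make cysteine and methionine. MGL (AT1G64660), methionine gamma-lyase, which breaks methionine down, was at 2.72, 2.96 and 4.01 in cortex and at 8.59 and 8.42 in pericycle. It had the largest difference of all genes with a symbol (log2 5.27 ± 0.41; 38.7-fold; adjusted p = 4.94e-05). APS3, an ATP sulfurylase, was at 4.86, 4.57 and 3.61 against 6.88 and 7.76 (log2 2.97 ± 0.392; adjusted p = 0.000871).

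SIR, the sulfite reductase, was at 7.16, 6.66 and 6.62 in cortex and at 8.96 and 8.53 in pericycle (log2 1.93 ± 0.244; adjusted p = 0.000692). CBL, cystathionine beta-lyase of the methionine pathway, differed by log2 1.03 ± 0.239 (adjusted p = 0.0168). Both genes were thus expressed in the 2 cell types, and both pericycle arrays lay above the cortex arrays. The methionine sulfoxide reductases MSRB6 and MSRB5, which repair oxidised methionine, were higher by log2 2.63 ± 0.378 (adjusted p = 0.00138) and 2.92 ± 0.693 (adjusted p = 0.0185). MSRB5 was at 4.75 and 6.48 in the pericycle arrays and did not pass without pericycle replicate 2 (adjusted p = 0.14) or without any one of the 3 cortex arrays (adjusted p = 0.0515 to 0.0585).

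Among 8 glucosinolate genes, which serve sulfur-containing defence compounds made partly from methionine, 3 were higher in pericycle and none was lower. Over all genes 5.88% were higher and 7.43% lower, and this list was also chosen with earlier results of these data known. GTR1, a glucosinolate transporter, was at 5.21, 5.47 and 5.19 in cortex and at 7.87 and 7.27 in pericycle (log2 2.28 ± 0.201; 4.86-fold; adjusted p = 9.02e-05). Its relative GTR2 overlapped between the groups, at 4.93, 4.86 and 4.26 against 4.55 and 3.54, and did not pass. BCAT4, of methionine chain elongation, and UGT74B1, of glucosinolate synthesis, passed but lost the call without some single arrays, BCAT4 with adjusted p up to 0.287 without pericycle replicate 1 and UGT74B1 with 0.103 without pericycle replicate 2. The count of 3 was 1 without cortex replicate 3 and 2 or 3 without any other single array.

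Genes that remodel the primary cell wall were found on both sides. Expansins loosen the wall and xyloglucan endotransglucosylases (XTH) cut and rejoin xyloglucan. Of 28 measured genes of these families, 7 were higher in pericycle and 5 were lower, against 5.88% and 7.43% of all genes. Their median log2 difference was 0.15. This median was 0.06 without cortex replicate 2, 0.29 without cortex replicate 3 and 0.33 without pericycle replicate 1. It was -0.26 without dim probe sets. XTH20 was at 2.62, 2.24 and 2.90 in cortex and 5.75 and 7.07 in pericycle (log2 3.83 ± 0.396; 14.2-fold; adjusted p = 0.000218). XTH21, XTH16 and the expansin EXPA15 were also near the lowest values in cortex and higher in pericycle, by log2 3.07 ± 0.49, 3.01 ± 0.344 and 2.63 ± 0.454.

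On the cortex side, EXPA9 and XTH19 were bright in both cell types. EXPA9 was at 11.06, 11.26 and 11.27 in cortex and at 9.48 and 10.20 in pericycle (log2 -1.36 ± 0.218; adjusted p = 0.00253). XTH19 was at 9.21, 8.62 and 9.01 against 7.70 and 7.05 (log2 -1.57 ± 0.273; adjusted p = 0.00383), and XTH33, at 4.10 and 3.04 in pericycle, was lower there by log2 -2.56 ± 0.462. XTH18, XTH19 and XTH20 are close relatives, and 2 of them were higher in cortex while the third was higher in pericycle. Pectin is modified by methylesterases, of which PMEPCRF was at 7.36, 7.08 and 7.41 in cortex and at 4.83 and 3.46 in pericycle (log2 -3.14 ± 0.347; 8.8-fold; adjusted p = 0.00032).

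The TBL family, whose characterised members add acetyl groups to wall polysaccharides, had 4 of 23 members higher in pericycle and 2 lower, against 5.88% and 7.43% of all genes, so the share of lower members was near that of all genes. The lower count was 1 without any one of 9 arrays, and stayed at 2 only without salt-grown pericycle replicate 1 or 3. TBL34 was at 2.73, 2.51 and 2.65 in cortex and 5.10 and 5.05 in pericycle (log2 2.45 ± 0.206; adjusted p = 7.35e-05), and TBL41 was at 7.46, 7.15 and 6.78 against 4.69 and 4.69 (log2 -2.44 ± 0.374; adjusted p = 0.00198). Prx37, a secreted peroxidase, was at 3.91, 5.09 and 4.43 in cortex and 6.71 and 8.35 in pericycle (log2 3.05 ± 0.497; adjusted p = 0.0027). Among 16 phenylpropanoid and flavonoid genes, 2 were higher in pericycle and 1 was lower, against 5.88% and 7.43% of all genes, so the lower count was near that share. HCT, an acyltransferase of the lignin pathway, and CHIL, a chalcone isomerase-like protein, were the higher ones. HCT was at 5.28, 5.36 and 5.29 against 6.83 and 7.96 (log2 2.09 ± 0.352; adjusted p = 0.00329), and CHIL differed by log2 2.64 ± 0.389 (adjusted p = 0.0016). UGT72E1, which adds glucose to lignin precursors, was lower, at 6.14, 6.45 and 6.35 in cortex and 4.00 and 4.60 in pericycle (log2 -2.01 ± 0.518; adjusted p = 0.0269). That call was lost without any one of the 5 arrays grown without salt, and 2 genes were called lower without any one salt-grown pericycle array. The 4 measured xylan synthesis genes differed by -0.01 to 0.62 and did not pass.

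**Figure D3:**
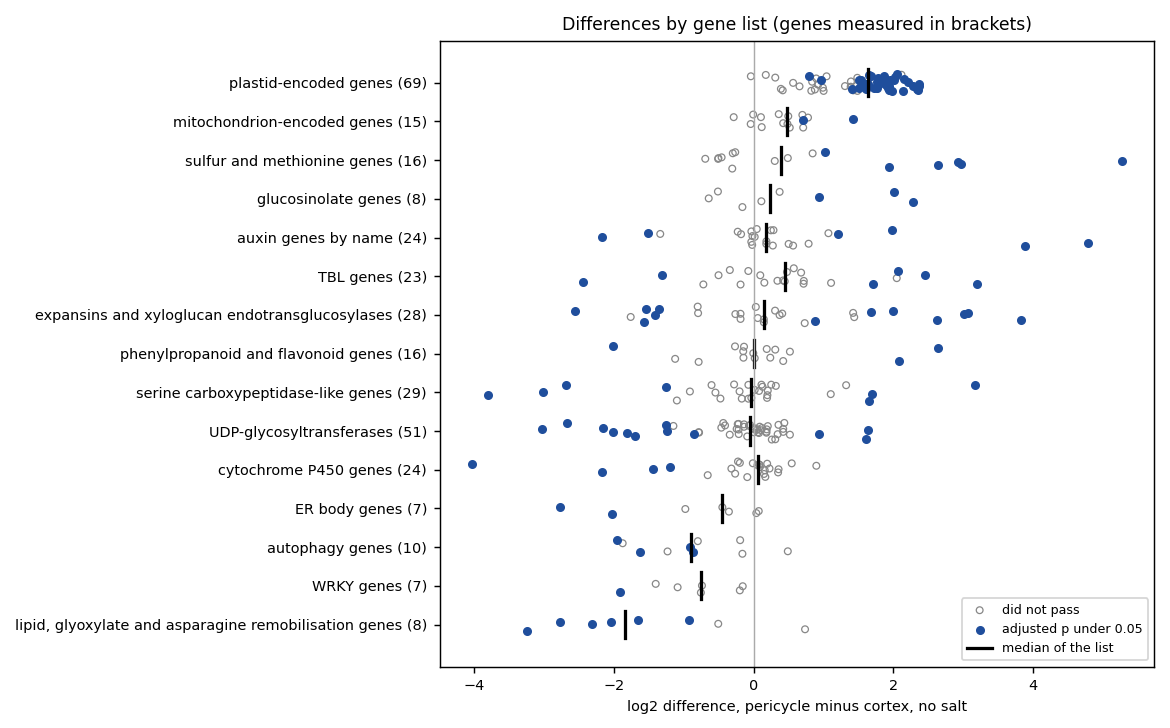
Log2 difference between pericycle and cortex without salt (x axis) for each measured gene of 15 lists (y axis, with the number of genes), filled where the adjusted p was under 0.05, with a bar at each list's median. The plastid-encoded genes lie to the right as a group with a median of 1.64, the remobilisation genes lie to the left with a median of -1.85, and the wall families spread to both sides.

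Transcripts encoded in the plastid genome were higher in pericycle as a group. Of 69 measured genes, 40 passed and all of these were higher in pericycle, where 5.88% of all genes were. The list's median log2 difference was 1.64. The mean over the list was 5.87, 5.74 and 5.86 in the cortex arrays and 6.95 and 7.73 in the pericycle arrays. Both pericycle arrays lay above all cortex arrays for 63 of the 69 genes, and pericycle replicate 2 lay above replicate 1 for 64. The count of calls was 21 without pericycle replicate 2, 24 without cortex replicate 2, and 29 to 51 without any other single array.

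All 9 groups of plastid functions had positive medians, and differences between them were not tested. The median log2 difference was 1.78 over 15 genes of photosystem II, 1.54 over 5 of photosystem I, 1.57 over 6 of the ATP synthase, 1.9 over 7 of the large ribosomal subunit, 1.83 over 8 of the small ribosomal subunit and 1.84 over 4 of the plastid RNA polymerase. It was 1.58 over 10 genes of the NADH dehydrogenase-like complex, 1.27 over 6 of the cytochrome b6f complex and 1.15 over the 8 other genes. The calls ranged from 2 of 6 for cytochrome b6f and 3 of 10 for the NADH dehydrogenase-like complex to 6 of 7 for the large ribosomal subunit. Over all genes 5.88% were higher in pericycle. psaA, a core protein of photosystem I, was at 6.85, 5.88 and 6.34 in cortex and at 8.89 and 8.58 in pericycle (log2 2.37 ± 0.445; adjusted p = 0.00579). rps4, of the small ribosomal subunit, was at 6.00, 5.86 and 5.90 against 7.94 and 8.63 (log2 2.37 ± 0.453; adjusted p = 0.00642). The 15 measured genes encoded in the mitochondrion had a median of 0.48, or 0.26 without pericycle replicate 2. Of these, 2 were higher in pericycle, ccb206 and nad1, where 5.88% of all genes were. Neither passed without any one cortex control array (adjusted p = 0.0516 to 0.12 for ccb206 and 0.0963 to 0.112 for nad1).

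**Figure D4:**
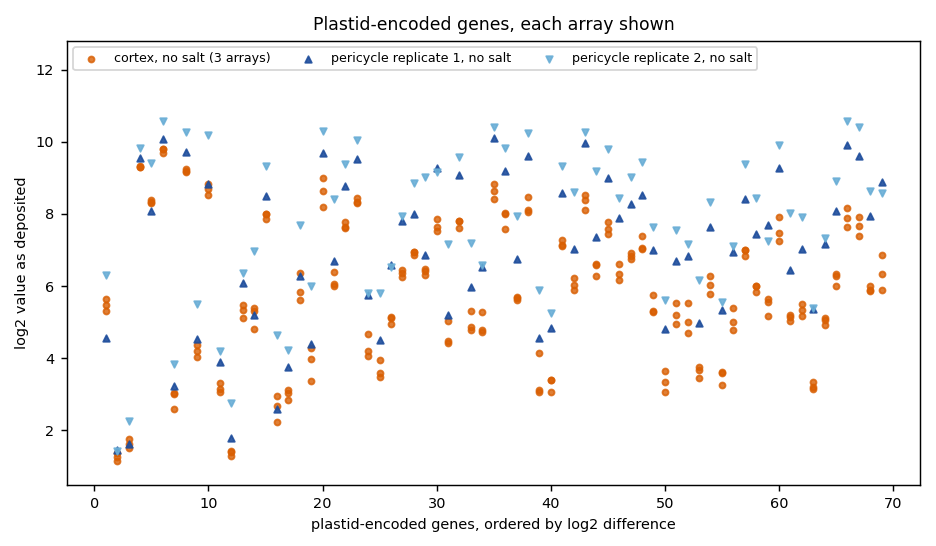
Log2 values (y axis) of the 69 measured plastid-encoded genes, ordered along the x axis by their log2 difference, with circles for the 3 cortex arrays, and upward and downward triangles for pericycle replicates 1 and 2. Both pericycle arrays lie above the cortex arrays for 63 genes, and replicate 2 lies above replicate 1 for 64.

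On the cortex side, the gene with the largest difference of those assigned to a single gene was SWEET2 (AT3G14770), a sugar transporter of the vacuolar membrane. It was at 8.67, 9.09 and 9.27 in cortex and at 3.55 and 5.78 in pericycle. The groups lay far apart although the pericycle arrays differed widely from each other (log2 -4.35 ± 0.604; 20.3-fold; adjusted p = 0.00115). The locus AT1G66760 was at 7.36, 7.71 and 7.95 against 4.08 and 3.00 (log2 -4.13 ± 0.375), and AT1G50060 was at 8.34, 9.14 and 9.35 against 4.50 and 5.25 (log2 -4.07 ± 0.358; 16.7-fold). OSM34, an osmotin of the pathogenesis-related proteins, was at 5.52, 6.08 and 6.34 in cortex and near the lowest values in pericycle, at 2.56 and 2.41 (log2 -3.50 ± 0.259; 11.3-fold; adjusted p = 4.12e-05).

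Most genes of a list for breaking down stored lipid and recycling carbon and nitrogen were lower in pericycle. The list held 8 genes, of which 6 were lower and none higher, against 7.43% and 5.88% of all genes. Its median log2 difference was -1.85. The list was chosen with earlier results of these data known, so its counts do not test the pathway. PPDK, pyruvate orthophosphate dikinase, was at 5.48, 5.55 and 5.73 in cortex and at 2.64 and 2.03 in pericycle (log2 -3.25 ± 0.286; 9.51-fold; adjusted p = 9.01e-05). ICL, isocitrate lyase of the glyoxylate cycle, was at 6.52, 6.83 and 7.10 against 3.94 and 4.16 (log2 -2.77 ± 0.449; adjusted p = 0.00265). ASPGB1, an asparaginase that releases ammonium from asparagine, was at 7.2, 7.51 and 8.09 against 4.96 and 5.62 (log2 -2.32 ± 0.389; adjusted p = 0.00321). These 3 genes had groups separated by more than 1 log2 unit.

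SDP1, a lipase that starts the breakdown of storage oil, was at 8.09, 8.46 and 8.19 in cortex and at 5.71 and 6.72 in pericycle (log2 -2.04 ± 0.421; adjusted p = 0.00947), and did not pass without pericycle replicate 1 (adjusted p = 0.0682). GAT1_2.1, a glutamine amidotransferase, and AIM1, of peroxisomal fatty acid oxidation, were lower by log2 -1.66 ± 0.365 and -0.92 ± 0.241. ASPGA1, the second asparaginase, had non-overlapping arrays in the opposite direction, at 6.86, 6.85 and 6.58 in cortex and 7.47 and 7.53 in pericycle, and did not pass (adjusted p = 0.0514). The count of 6 fell to 3 without pericycle replicate 1 and to 4 without pericycle replicate 2.

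Autophagy genes were also lower in pericycle or did not pass. ATG8 proteins are attached to the membrane of the autophagosome, which delivers cell contents to the vacuole. Of 10 measured autophagy genes, 4 were lower and none was higher, against 7.43% and 5.88% of all genes. This list too was chosen with earlier results of these data known, and its median log2 difference was -0.89. APG8A was at 9.17, 9.29 and 9.24 in cortex and at 7.23 and 7.31 in pericycle (log2 -1.96 ± 0.394; 3.9-fold; adjusted p = 0.00814). ATG8H was at 8.80, 9.15 and 9.31 against 7.50 and 7.41 (log2 -1.63 ± 0.284; adjusted p = 0.00391). ATG8F and ATG8E were lower by log2 -0.92 ± 0.267 and -0.87 ± 0.186, or by -0.42 and -0.62 without pericycle replicate 2. ATG8F lost its call under 13 of 18 alternatives and ATG8E under 1. Without cortex replicates 1, 2 and 3 the adjusted p of ATG8F was 0.0792, 0.134 and 0.108. With only the compared arrays fitted it was 0.121. The list's count of 4 was 3 without any one cortex array, and 6, 4 and 3 without salt-grown pericycle replicates 1, 2 and 3. Fits without a pericycle array grown without salt leave a single array in that group. Their counts are left out here, so 3 is not a lower limit.

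Of 4 vacuolar processing enzymes measured, 1 was higher in pericycle and 1 lower, and of 7 genes of ER bodies, 2 were lower and none was higher. Over all genes 5.88% were higher and 7.43% lower, and with so few genes the counts say little about either group. The vacuolar processing enzyme ALPHA-VPE, a protease of vegetative tissues, was at 8.05, 8.34 and 7.95 in cortex and at 5.28 and 6.25 in pericycle (log2 -2.35 ± 0.403; adjusted p = 0.00365). BETA-VPE, known mainly from seeds, was at 2.80, 3.24 and 3.11 against 6.10 and 4.60 (log2 2.30 ± 0.426; adjusted p = 0.00545). The related GAMMA-VPE was bright in both, at 9.52, 9.44 and 9.34 against 9.32 and 8.74, and did not pass. NAI1, a transcription factor needed to form ER bodies, which store defence enzymes, was at 8.13, 7.60 and 7.90 in cortex and at 6.37 and 5.31 in pericycle (log2 -2.03 ± 0.286; adjusted p = 0.00121). PYK10, the main beta-glucosidase of ER bodies, was at 11.19, 11.15 and 11.23 against 10.71 and 10.77 without passing (adjusted p = 0.097), so the groups did not overlap but the difference was small.

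Of 29 serine carboxypeptidase-like genes, 3 were higher in pericycle and 4 lower, a few genes more than the 5.88% and 7.43% of all genes. scpl28 was at 6.45, 6.67 and 6.43 in cortex and at 2.42 and 3.02 in pericycle (log2 -3.80 ± 0.371; 13.9-fold; adjusted p = 0.000157), while SCPL45 was at 3.77, 4.14 and 4.21 against 6.82 and 7.59 (log2 3.16 ± 0.24; adjusted p = 4.65e-05).

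Single genes tied to immunity and stress were found on both sides. PUB22, a ubiquitin ligase that dampens immune signalling, was at 9.65, 9.57 and 9.80 in cortex and at 6.65 and 7.03 in pericycle (log2 -2.83 ± 0.202; 7.13-fold; adjusted p = 3.67e-05). WRKY6, a transcription factor of senescence and defence, was at 9.59, 9.82 and 9.99 against 7.65 and 8.12 (log2 -1.92 ± 0.259; adjusted p = 0.00099), and the other 6 WRKY genes measured had differences from -1.40 to -0.16 and did not pass. Without the first salt-grown pericycle array 4 WRKY genes were called lower, and without the second 2 were. Of 7 calmodulin-like genes named CML, CML30, CML43 and CML42 were lower in pericycle and none was higher. Over all genes 7.43% were lower and 5.88% higher. AtLEA4-1, a late embryogenesis abundant protein, was at 8.58, 8.62 and 9.25 in cortex and at 5.46 and 6.41 in pericycle (log2 -2.88 ± 0.339; adjusted p = 0.000463), whereas COR27 and DI21, named for induction by cold and drought, were higher by log2 1.84 ± 0.319 and 1.38 ± 0.164. Of 9 jasmonate and wound genes measured, 1 was higher in pericycle and 1 lower, against 5.88% and 7.43% of all genes, with a median log2 difference of 0.02. ORA47, a jasmonate-related transcription factor, was higher in pericycle, at 6.88 and 7.2 against 4.01, 4.76 and 3.61 (log2 2.91 ± 0.5; adjusted p = 0.00362). JRG21 was lower (log2 -1.87; adjusted p = 0.00939), or by -1.25 without pericycle replicate 2. In the list of wounding and protoplast stress genes, 5 of 25 were measured, of which 1 was higher and 2 were lower, with a mean of 6.31 to 6.58 in the cortex arrays and 5.75 to 5.77 in the pericycle arrays.

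UDP-glycosyltransferases attach sugars to hormones, defence compounds and foreign molecules, and of 51 measured genes 9 were lower in pericycle and 3 were higher, against 7.43% and 5.88% of all genes. Their median was -0.05, and 0.02 without cortex replicate 2. UGT73B5 was at 8.32, 8.22 and 8.20 in cortex and at 5.31 and 5.84 in pericycle (log2 -2.67 ± 0.218; adjusted p = 6.2e-05). UGT85A2 was among the brightest, at 10.37, 10.26 and 10.19 against 8.54 and 8.38 (log2 -1.81 ± 0.204; adjusted p = 0.000353). UGT71C3 and UGT73C7 were higher in pericycle, by log2 1.63 ± 0.315 and 1.62 ± 0.3.

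Of 24 cytochrome P450 genes, 4 were lower in pericycle and none was higher, against 7.43% and 5.88% of all genes. CYP718 was at 9.09, 9.34 and 8.78 in cortex and at 4.59 and 5.49 in pericycle (log2 -4.03 ± 0.507; 16.3-fold; adjusted p = 0.000682), and CYP71B22, CYP71B23 and CYP71B6 were lower by log2 -2.17, -1.44 and -1.20. Of 14 glutathione transferases, 1 was lower and 1 higher in pericycle, near the 7.43% and 5.88% of all genes. GSTU22 was at 10.82, 11.05 and 11.03 against 8.76 and 9.20 (log2 -1.99 ± 0.265; adjusted p = 0.000927). GSTU18 was at 3.61, 3.99 and 3.11 in cortex and 5.98 and 5.62 in pericycle (log2 2.23 ± 0.494; adjusted p = 0.0135), and did not pass without cortex replicate 3 or pericycle replicate 1. Of 22 beta-glucosidases, 2 were lower and none higher, near the 7.43% of all genes that were lower. BGLU16 and BGLU25 were lower by log2 -2.13 ± 0.387 and -1.54 ± 0.214. MTP11, a manganese transporter, was at 7.26, 7.38 and 7.43 in cortex and at 5.44 and 5.13 in pericycle (log2 -2.08 ± 0.229; adjusted p = 0.000312), and bHLH34, a transcription factor linked to iron uptake, was higher in pericycle (log2 2.34 ± 0.349; adjusted p = 0.00169). These genes were expressed above the dim limit in at least 1 cell type. Their groups did not overlap, which was so for every probe set that passed and adds nothing to the calls.

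The same cell-type difference was measured again in the 6 salt-grown arrays, which the comparison without salt did not use as groups, although one fit estimated the spread of all 11 arrays. There, 4066 probe sets (17.9%) passed, 1764 (7.76%) higher and 2302 (10.1%) lower in pericycle, a count that was 2461 without cortex salt replicate 1 and 2474 without cortex salt replicate 3. Of the 1527 probe sets that were higher in pericycle without salt, 905 (59.3%) were also called higher under salt and 1401 (91.7%) had a difference of the same sign. Of the 1860 that were lower, 1042 (56%) were also called lower and 1680 (90.3%) kept the sign. Over all probe sets 51.5% had a positive difference under salt.

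The genes described above differed in whether their salt-grown arrays showed the same contrast. LBD16 differed by log2 4.37 under salt, MGL by 4.19, WNK9 by 3.86, LCR69 by 5.24, PPDK by -3.04 and OSM34 by -3.99, and each passed there. IAA29 differed by 0.67 under salt and CYP718 by -0.74, and neither passed. The test of the change itself (difference under salt minus difference without salt) passed for 190 probe sets (0.835%), of which 119 were among the 3387. This count was 53 to 635 without a single array. IAA29 passed that test (change in log2 difference -4.11 ± 0.604; adjusted p = 0.0169) and CYP718 did not (adjusted p = 0.0615). Of the 119, 36 were higher in pericycle without salt with a difference that was smaller or turned under salt, 68 were lower with a difference that was smaller or turned, and 15 had a larger difference of the same direction. The 119 had been chosen for a difference without salt, and the change was measured from the same arrays. That choice favours smaller differences under salt, so these counts do not show that differences shrank in general.

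**Figure D5:**
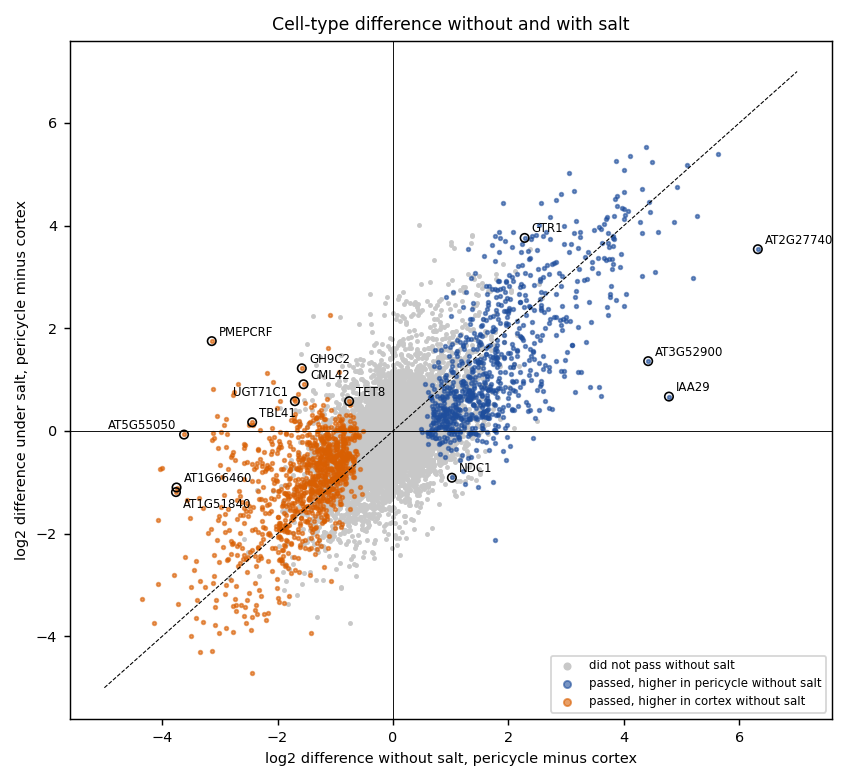
Log2 difference between pericycle and cortex without salt (x axis) against the same difference under salt (y axis) for the 13355 measured genes. Each gene is given by its brightest probe set. Genes that passed without salt (adjusted p under 0.05) are blue where higher in pericycle and orange where lower, and all others are grey. Circles and names mark the described genes whose 2 differences were themselves different, and the dashed line marks equal differences; IAA29 lies near 0 under salt and PMEPCRF above 0.

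Only 24 probe sets passed in opposite directions without and under salt, 8 of them higher and 16 lower without salt. They included PMEPCRF, which was lower in pericycle without salt and higher under salt (log2 1.75; adjusted p of the change = 0.003), and CML42 and UGT71C1, whose differences went from log2 -1.55 to 0.91 and from -1.70 to 0.58. GH9C2 and NDC1, chosen for mention after their values were seen, went from log2 -1.58 to 1.22 and from 1.02 to -0.91.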

How the data were processed

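RNA of sorted root protoplasts was labelled and hybridised to an Affymetrix-type array, 1 sample per array. The authors deposited a single table of log2 values. Per the submitters' processing notes, RMA and limma were used; versions and the genome build are not given in the sources used here, so no coordinates are printed. The values were used as deposited, without the 64 control probe sets. A limma (version 3.58.1, R 4.3.3) fit gave each of the 4 groups its mean over all 11 arrays, with 7 residual and 2.96 prior degrees of freedom. P-values were two-sided and adjusted (Benjamini-Hochberg) over 22746 probe sets, and calls needed an adjusted p below 0.05 whatever the fold. In simulated data with 100 probe sets changed by each amount, the fit recovered 21% of true log2 differences of 1 and 64% of those of 2. It made 89 calls, of which 4 were false. Far fewer probe sets were changed there than were called in the data, and each probe set had the same spread in every group. In the data the pericycle arrays spread more than the cortex arrays, so these rates may not carry over. A gene that did not pass may still differ. Array signal has no depth, and the number of arrays limits the precision. Errors are standard errors of the fit.

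The platform's probe table gave 13513 probe sets exactly 1 gene, 503 several and 8730 none, and RefSeq (TAIR10.1) matched 13436 of the first. A gene was given by its brightest probe set. The members and lists were chosen with earlier results of these data known. Named were the 15 genes with the largest differences in each direction, the 15 in each direction with a symbol, all with non-overlapping groups, and up to 5 members that passed per list (up to 2 as values where none did). AIM1, ASPGA1, CBL, CML30, CML43, EXPA9, GAMMA-VPE, GH9C2, GTR2, NDC1, PYK10, UGT71C1, UGT71C3, UGT73C7, XTH18, XTH19, and the LCR, WRKY and marker genes outside the rule were added after their values were seen. Cell types, families and pathways not described had too few genes assigned to a probe set, and are not analysed here.

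Replicate numbers were checked as pairs: arrays of the same number had residual correlations of -0.151 to 0.107. Residuals within each small group must cancel out, so this check cannot exclude that the numbers pair the samples. The main fit did not use them as pairs. Alternatives were a fit on the compared arrays alone, array weights, a filter on dim probe sets, quantile normalization, median centring, trended robust moderation, a replicate block, and each array left out.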

Additional observations from a re-analysis of the deposited data

Results flagged for a closer look

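The cell-type difference was itself different under salt, by the test of the change in limma's fit, for 14 of the genes described. Groups of 2 or 3 arrays were not tested for a single distant array. The array weights ran from 0.171 for the first salt-grown pericycle array to 2.98, and leaving that array out moved the count of calls without salt from 3387 to 5007. The values are the difference under salt minus the difference without salt, on the log2 scale. PMEPCRF, the pectin methylesterase, changed by 4.89 ± 0.466 (adjusted p = 0.003), from -3.14 to 1.75. IAA29 changed by -4.11 ± 0.604 (adjusted p = 0.0169), from 4.78 to 0.67. Among genes known here by locus, AT5G55050 changed by 3.56 (from -3.62 to -0.07), AT3G52900 by -3.06 (from 4.42 to 1.36), AT2G27740 by -2.79 (from 6.32 to 3.54), AT1G66460 by 2.64 (from -3.75 to -1.1) and AT1G51840 by 2.57 (from -3.76 to -1.19). TBL41 changed by 2.61 (from -2.44 to 0.17), CML42 by 2.46 (from -1.55 to 0.91) and TET8 by 1.34 (from -0.76 to 0.58). GH9C2 changed by 2.80 (from -1.58 to 1.22), UGT71C1 by 2.28 (from -1.7 to 0.58) and NDC1 by -1.93 (from 1.02 to -0.91), and these 3 were chosen for mention after their values were seen. GTR1, the glucosinolate transporter, was the only one of the 14 whose difference was larger under salt, by 1.48 (from 2.28 to 3.76). Most of the 14 had been picked by their difference without salt, which favours a smaller difference under salt. The adjusted p of the changes not given above was 0.00358 to 0.0495.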

How the results depend on the processing

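The count of 3387 stayed within 1.5 times under the alternatives run. It was 3510 with only the compared arrays, 3159 with array weights, 3182 without dim probe sets, 3242 after quantile normalization, 3566 after median centring, 3302 with trended robust moderation and 2763 with the replicate block, and 2258 to 5007 without 1 array. The count under salt was 2461 to 5102 without 1 array. The count of changed cell-type differences, 190, was 121 with the replicate block and 53 to 635 without 1 array. Of 129 named genes that passed, 101 passed under every alternative run, 28 lost the call under at least 1, and none reversed. Leaving out 1 pericycle array moved the log2 difference of 6 of them by over 1.5 times, namely ATG8F, TBL19, AT5G66390, SWEET11, BCAT4 and IQD26. Medians of some lists near 0 turned. Without dim probe sets that of the glutathione transferases was -0.14, of the beta-glucosidases -0.45 and of the expansins and XTH genes -0.26. The median of the glutathione transferases was -0.0504 after median centring and -0.0318 with the replicate block. Without 1 array it was -0.0076 to 0.0634, that of the UDP-glycosyltransferases -0.0653 to 0.0245, of the serine carboxypeptidase-like genes -0.0334 to 0.067, of the cellulose synthase genes -0.2202 to 0.0144 and of the iron and metal genes -0.3372 to 0.0241. The causes were not tested. Genes dim in one cell type have differences that may be understated, and only 5 of 23 pericycle and 4 of 5 cortex markers could be measured.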
